A study of Mus musculus with 15 samples.

Results

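The 9 genes described here encode the receptors that detect foreign or misplaced nucleic acid inside mouse cells and the adaptors and effectors they act through: *Ddx58* (RIG-I), *Ifih1* (MDA5), *Dhx58* (LGP2), *Ddx60*, *Mavs*, *Tmem173* (STING), *Eif2ak2* (PKR), *Tlr3* and *Adar*. They were chosen by name for this function, with earlier results of these data known, and all 9 were found among the 55487 genes of the count table. Counts of members set beside all genes are therefore description. Expression was measured in skin tissue of C57BL/6 mice at 3 weeks of age by QuantSeq, which reads the 3′ end of polyadenylated transcripts, so that levels of different genes can be set side by side without a correction for transcript length. There were 15 libraries in 3 groups of 5. OTULIN E-KO mice carry *Otulin* alleles flanked by loxP sites that a K14-Cre transgene deletes in keratinocytes, and they gave 5 libraries from lesional and 5 from non-lesional skin. The 5 WT libraries came from littermates with the loxP-flanked alleles and no Cre. The Cre does not act in dermal, vascular or immune cells, all of which were part of the sample, and the sources used here do not say whether lesional and non-lesional pieces were taken from the same animals. The study describes 5 mice in a group.

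RIG-I and MDA5 are helicases that bind double-stranded RNA in the cytosol and signal through MAVS, an adaptor on the mitochondrial membrane, to the kinase TBK1 and the transcription factor IRF3, which induce type I interferon (IFN). LGP2 is a related helicase without the signalling domains, and DDX60 is a helicase described as their cofactor. STING is the adaptor for cytosolic DNA and answers to the cyclic dinucleotide made by cGAS, TLR3 binds double-stranded RNA in endosomes, PKR stops translation by phosphorylating eIF2α when it binds such RNA, and ADAR edits adenosines in double-stranded RNA and thereby hides the cell's own transcripts from these receptors. Several of these genes are themselves induced by IFN, and keratinocytes are among the cells that use them. OTULIN removes linear ubiquitin chains, which are attached in several immune signalling pathways.

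One DNA element that IFN-induced genes often carry near their start is the IFN-stimulated response element. The letters GAAANNGAAA, a core form of it, were searched on both strands of the RefSeq promoters of build GRCm38.p6, each reaching from 250 bases before to 50 bases after a start site. Promoters were matched by symbol for 7 of the 9 members, with 9 promoters, all but *Dhx58* and *Tmem173*. The letters were found in 4 members, *Ddx60*, *Ddx58*, *Ifih1* and *Eif2ak2*, and were not in the windows of *Mavs*, *Tlr3* and *Adar*. Over all mouse genes 3.99% of 27025 genes had them, and 3.44% of 32851 promoters. The stretches below show these matches in capitals, with *Mavs* beside them as a member without the letters. *Tlr3* and *Adar*, which also lacked them, had higher means in lesional than in WT skin, as given below. Against WT, the lesional log2 fold changes were 1.08 to 2.38 for the 4 members with the letters. For *Mavs*, *Adar* and *Tlr3* they were 0.05, 0.94 and 0.99. In non-lesional skin the values were 0.40 to 1.49 with the letters, and 0.27, 0.41 and 0.29 for *Mavs*, *Adar* and *Tlr3*. Whether the letters go with the levels was not tested. The *Ddx60* stretch is chr8:61928007-61928086, plus strand, with a pair of matches from -53 to -44 and from -19 to -10 counted from the start at 1. The *Ddx58* stretch is chr4:40239806-40239885, minus strand, with the match from 3 to 12 read on the other strand. That of *Ifih1* is chr2:62646206-62646235, minus strand, match from 33 to 42, that of *Eif2ak2* is chr17:78882535-78882564, minus strand, match from 19 to 28, and that of *Mavs* is chr2:131233983-131234062, plus strand.

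Ddx60: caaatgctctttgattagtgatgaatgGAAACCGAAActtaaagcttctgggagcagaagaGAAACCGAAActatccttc
Ddx58: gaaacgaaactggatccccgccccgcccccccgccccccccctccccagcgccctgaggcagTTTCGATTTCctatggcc
Ifih1: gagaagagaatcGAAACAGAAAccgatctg
Eif2ak2: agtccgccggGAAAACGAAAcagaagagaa
Mavs: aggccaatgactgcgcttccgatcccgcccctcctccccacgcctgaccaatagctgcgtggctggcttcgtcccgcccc

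A match is a run of letters, and binding was not measured. Other forms of the element were not searched, so that a window without GAAANNGAAA may still hold one. A second pattern, TTCNNNGAA, was also searched and was found in *Adar* and *Eif2ak2*, beside 9.55% of all genes.

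Each library held between 1962604 and 2567138 counts, so that 1 count was worth 0.38 to 0.519 CPM (the usual count unit scaled to a common library size, here with TMM-normalized sizes). The keratinocyte marker genes summed to between 4081 and 12370 CPM in every library. *Otulin* was at 23.1 ± 6.5 CPM (SD, n = 5) in WT, 26.2 ± 4.2 in non-lesional and 24.8 ± 3.4 in lesional libraries, so that its level in whole skin did not separate the genotypes. A transcript of a deleted allele that kept its 3′ end would still be counted, and this was not tested. Lesional replicates 2 and 11 stood apart from the other 3 lesional libraries in genes that are not members. Stressed-epidermis keratins and their companions (*Krt6a*, *Krt6b*, *Krt16*, *Krt17*) summed to 13020 and 32190 CPM there, against 663.2 to 2218 in every other library, and the neutrophil list summed to 3023 and 5173 CPM, against 1.71 to 6.45 in WT. *S100a8* and *S100a9*, also made by stressed keratinocytes, made up nearly all of the sum. Of the neutrophil genes in the list, *Ly6g* and *Csf3r* were at 0 in all 15 libraries, while *Cxcr2* had 0 counts over the WT, 1 over the non-lesional and 24 over the lesional libraries. In replicate 11 skeletal muscle markers were at 2558 CPM and endothelial markers at 96.7 CPM, both below all other libraries. Its fibroblast markers (16430 CPM) and adipocyte markers (823.6 CPM) were also the lowest of the 15 libraries, and its keratinocyte markers the highest at 12370 CPM, followed by replicate 2 at 9198 CPM. The part of this makeup in the members' values was not tested. The summed macrophage markers overlapped between the groups (205.9 to 452.1 CPM in WT, 239.5 to 347.5 in non-lesional, 247.9 to 376.3 in lesional). Of the 6 genes of this list, *Aif1* was at 5.498 to 9.71 CPM in WT, 4.3 to 14.4 in non-lesional and 10.4 to 25.3 in lesional libraries, higher in lesional than in WT skin by 1.19 on the log2 scale (standard error 0.29), and *C1qa* by 0.57 (standard error 0.25). The other 4 had log2 fold changes of 0.26 (*Cd68*), -0.049 (*Csf1r*), -0.10 (*Adgre1*) and -0.17 (*Lyz2*), each smaller than its standard error. *Aif1* and *C1qa* had an unadjusted p under 0.05 from edgeR's test, as *Aif1* also had without replicates 2 and 11, and the part of macrophages in the members' lesional values was not tested. Member results on lesional skin are therefore given with and without replicates 2 and 11. In whole tissue fewer cells of a type and less RNA per cell cannot be told apart.

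In WT skin the members ranged from 1.4 to 21.7 CPM. *Mavs* had the highest mean level, at 21.7 ± 7.3 CPM (SD, n = 5). The RNA receptors *Ddx58* and *Ifih1* followed at 16.1 ± 3.7 and 15.8 ± 1.5 CPM, a difference well within their spread, and *Adar* (13.8 ± 2.1) and *Eif2ak2* (11.2 ± 2.0) lay just below. *Ddx60* was at 7.84 ± 2.3 CPM, *Tlr3* at 5.34 ± 1.99 and *Tmem173* at 5.17 ± 1.42, the last pair again not separable. *Dhx58* was lowest, at 1.4 ± 0.56 CPM, or 2 to 6 counts in a library. The order was different in lesional skin, where *Ifih1* (45.3 ± 37.0) and *Ddx60* (41.3 ± 38.1) had the highest means, although with SDs nearly as large as the means, and *Mavs* was sixth at 22.5 ± 5.3 CPM. Without lesional replicates 2 and 11 *Mavs* had the highest lesional mean, as in WT, at 24.7 CPM. *Ifih1* and *Ddx60* were then at 20.1 and 16.6 CPM. In non-lesional skin *Ifih1* (27.0 ± 10.9), *Mavs* (26.2 ± 2.7), *Ddx60* (22.2 ± 10.8) and *Ddx58* (21.4 ± 5.4) were within their spreads of each other.

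**Figure D1:**
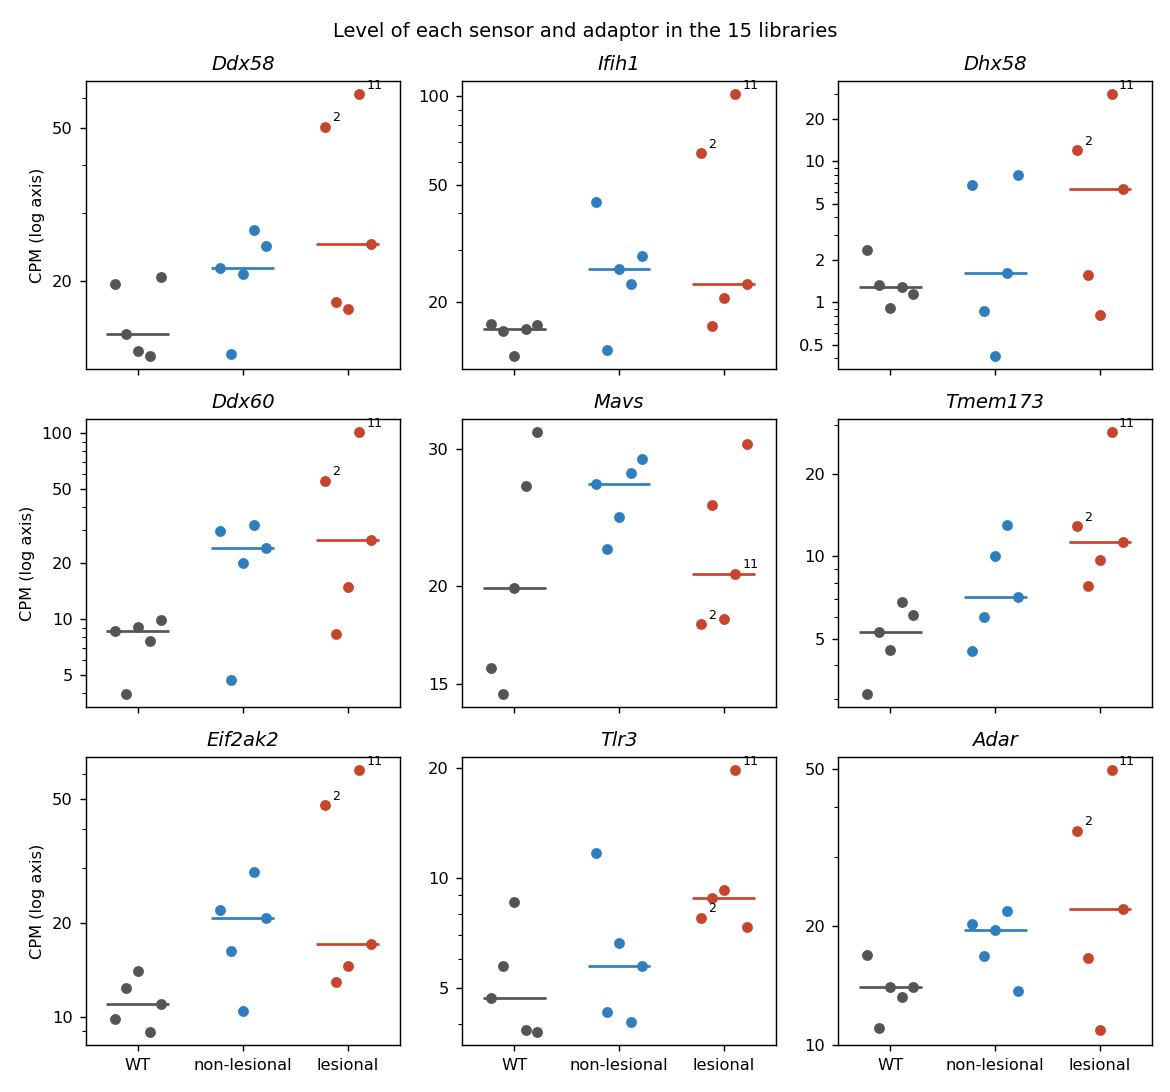
Level of each of the 9 members in CPM (log axis, one scale per panel) in the 15 libraries, with a point per library, the group median as a line, and lesional replicates 2 and 11 numbered. Replicate 11 is the highest library for 8 of 9 members, while all lesional and non-lesional *Mavs* values lie inside the WT range.

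Non-lesional skin was compared with WT to see whether the sensors differ where no lesion is visible. All 8 members that passed the filter on low counts had a higher mean there, most of all *Ddx60* (2.8-fold), *Eif2ak2* (1.76-fold) and *Ifih1* (1.7-fold). In each case the values of 4 non-lesional libraries exceeded the WT maximum. *Mavs* (1.2-fold) and *Tlr3* (1.22-fold) differed least. By edgeR's quasi-likelihood test 0 members and 0 of 13021 genes had an adjusted p under 0.05 (0% called), with 411 genes at an unadjusted p under 0.05. DESeq2's Wald test called 1 gene and limma's voomWithQualityWeights called 0. At an unadjusted p under 0.05, 4 of the 8 members were higher (*Ddx60*, *Eif2ak2*, *Ifih1* and *Adar*) and 0 lower, against 1.85% of all genes tested that were higher at this p. With all 15 libraries in 1 fit, which takes the spread of the lesional libraries into the estimate, *Ddx60* alone of the 8 was at such a p, and those of *Eif2ak2*, *Ifih1* and *Adar* were 0.0691, 0.116 and 0.199 in edgeR's test. Every non-lesional library lay above every WT library for 0 of the 8 members (0.392% of all genes). The members' median log2 fold change was 0.53, beside -0.003 over all genes tested.

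*Ddx60* (ENSMUSG00000037921, chr8:61928087-62038244 of GRCm38, plus strand), the helicase cofactor, had 8.64, 3.97, 9.05, 7.67 and 9.87 CPM in WT replicates 1, 4, 7, 10 and 13. In non-lesional replicates 3, 6, 9, 12 and 15 it had 29.7, 4.73, 19.99, 32.0 and 24.3 CPM. Replicate 6 thus lay among the WT libraries and the other 4 lay above all of them. The log2 fold change was 1.49 (standard error 0.39, 95% interval 0.64 to 2.33), with an unadjusted p of 0.00222 and an adjusted p of 0.9998 from edgeR's test. Without non-lesional replicate 6 the log2 fold change was 1.74 and the adjusted p was 0.015, and with no filter on low counts it was 1.48 with an adjusted p of 5.94e-06. Over the other alternatives the adjusted p lay between 0.407 (DESeq2) and 1.

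*Ifih1* (ENSMUSG00000026896, chr2:62595798-62646255, minus strand), the MDA5 receptor of long double-stranded RNA, was the most even member in WT skin, at 16.9, 15.9, 13.1, 16.2 and 16.7 CPM. The non-lesional libraries, in the same order as above, had 43.7, 13.7, 25.8, 23.1 and 28.7 CPM. Replicate 6 was again within the WT range and the remaining 4 were above it. The log2 fold change was 0.77 (standard error 0.23, unadjusted p = 0.00391 and adjusted p = 0.9998 from edgeR's test). An exact two-sided permutation test of mean log2 CPM over 252 regroupings, whose smallest possible p is 0.0079, gave p = 0.0397 (unadjusted) for *Ifih1*, and the same value for *Ddx60* and *Eif2ak2*.

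*Eif2ak2* (ENSMUSG00000024079, chr17:78852564-78882573, minus strand), which encodes the translation-blocking kinase PKR, had 9.82, 12.4, 14.03, 8.95 and 11.01 CPM in WT libraries. Its non-lesional values were 22.1, 16.3, 10.4, 29.2 and 20.8 CPM, and here the library inside the WT range was replicate 9. It was higher by 0.82 on the log2 scale (standard error 0.24, 95% interval 0.31 to 1.33). *Adar* (ENSMUSG00000027951, chr3:89715022-89753446, plus strand), the RNA editor, had 11.04 to 16.9 CPM in WT and 13.7 to 21.9 CPM in non-lesional libraries, of which 3 lay above all WT libraries. Its log2 fold change of 0.41 (standard error 0.19) passed 0.05 narrowly in edgeR's test (unadjusted p = 0.0451) and not in the exact permutation test (p = 0.0556). The 3′ end of *Adar* overlaps exons of *Chrnb2*, a neuronal acetylcholine receptor subunit on the other strand, over 1365 bases, and a read there could be counted for both genes. *Chrnb2* had 9.29 ± 1.66 CPM in WT, 12.6 ± 2.2 in non-lesional and 16.2 ± 8.2 in lesional libraries (SD, n = 5), and the shares of *Adar* and *Chrnb2* in these reads cannot be told apart. Exons of *Dhx58*, *Eif2ak2* and *Tlr3* also overlap non-coding genes on the other strand, at least 2142 bases from their 3′ ends.

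The other members had an unadjusted p above 0.05 or were not tested. *Ddx58* (ENSMUSG00000040296, chr4:40203773-40239828, minus strand), the RIG-I receptor of short RNA ends, had 12.8 to 20.5 CPM in WT and 12.9 to 27.2 CPM in non-lesional libraries, with 4 above all WT libraries and a log2 fold change of 0.40 (standard error 0.21, 95% interval -0.042 to 0.85). *Tmem173* (ENSMUSG00000024349, chr18:35733679-35740554, minus strand), the STING adaptor, had 3.14, 5.30, 4.53, 6.82 and 6.07 CPM in WT replicates. It had 4.503, 6.01, 9.99, 12.96 and 7.07 CPM in non-lesional ones, so that 3 lay above all WT libraries (log2 fold change 0.65, standard error 0.32, 95% interval -0.023 to 1.33). Replicate 3, the non-lesional library with the highest *Ifih1*, was the lowest of the group for *Tmem173*. *Tlr3* (ENSMUSG00000031639, chr8:45395665-45411080, minus strand), the endosomal receptor, had 3.8 to 8.6 CPM in WT and 4.05 to 11.7 CPM in non-lesional libraries, a log2 fold change of 0.29 (95% interval -0.44 to 1.01) that was -0.033 without replicate 3. *Mavs* (ENSMUSG00000037523, chr2:131234063-131248025, plus strand), the mitochondrial adaptor, had 15.7, 14.6, 19.9, 26.9 and 31.5 CPM in WT and 27.0, 22.3, 24.6, 28.0 and 29.2 CPM in non-lesional libraries. All non-lesional *Mavs* values lay inside the WT range, and the log2 fold change was 0.27 (95% interval -0.16 to 0.69).

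*Dhx58* (ENSMUSG00000017830, chr11:100694884-100704271, minus strand), which encodes LGP2, did not pass the filter in either comparison with WT. Its raw counts were 6, 3, 2, 3 and 3 in WT and 15, 2, 1, 4 and 18 in non-lesional libraries. Replicates 3 and 15 thus held 33 of the 40 non-lesional counts. Summed over libraries and scaled to depth, the ratio to the 17 WT counts was 2.42 (exact 95% interval 1.34 to 4.55, for counting error only, since PCR copies were counted as reads), and the exact permutation test of mean log2 CPM gave p = 0.389.

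Means of 7 tested members were higher in lesional than in WT skin by 1.92-fold or more, and that of *Mavs* was 1.03 times its WT value. *Ddx60* was 5.22-fold higher, *Ifih1* 2.86-fold, *Eif2ak2* 2.74-fold, *Tmem173* 2.68-fold, *Ddx58* 2.11-fold, *Tlr3* 1.99-fold and *Adar* 1.92-fold, all with an unadjusted p under 0.05. These were 7 of the 8 members tested, against 3.24% of all genes tested that were higher at this p. By edgeR's quasi-likelihood test 0 members and 0 of 12918 genes had an adjusted p under 0.05 (0% called), 621 genes had an unadjusted p under 0.05, DESeq2 called 14 genes with *Ddx60* among them (adjusted p = 0.0111), and voomWithQualityWeights called 0. *Tmem173* was the 1 member of 8 with every lesional library above every WT library (0.441% of all genes). The median log2 fold change of the members was 1.25, beside -0.003 over all genes. Without lesional replicates 2 and 11, the median of the members was 0.37 and 2 members, *Ddx60* and *Tmem173*, had an unadjusted p under 0.05 (0.00829 and 0.0185). These were 2 of 8 members tested, against 1.42% of all genes higher at this p in the same fit.

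**Figure D2:**
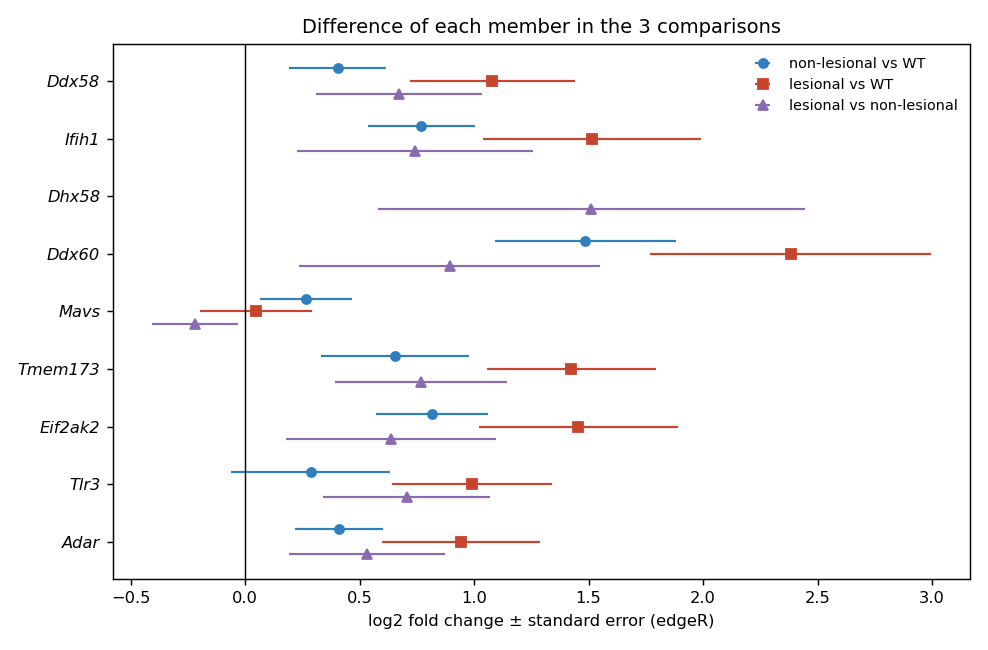
Log2 fold change of each member with its standard error from edgeR in the 3 comparisons, between groups of 5 libraries. Among the lesional-against-WT values (squares) that of *Ddx60* is highest, at 2.38, and that of *Mavs* is 0.05, with *Dhx58* shown only for lesional against non-lesional because it failed the filter in the others.

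*Ddx60* had 55.5, 8.3, 14.95, 101.3 and 26.5 CPM in lesional replicates 2, 5, 8, 11 and 14. Replicate 5 was inside the WT range (3.97 to 9.87) and the other 4 were above it. The log2 difference was 2.38 (standard error 0.61, unadjusted p = 0.00249, adjusted p = 0.9256 from edgeR's test), 1.74 without replicate 11, and 1.07 without replicates 2 and 11. In the other 3 libraries the mean was 16.6 CPM, or 2.11 times the WT mean, while replicates 2 and 11 were at 7.08 and 12.9 times that mean.

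*Tmem173* had 12.8, 7.78, 9.7, 28.4 and 11.3 CPM in the lesional libraries, each above the highest WT value of 6.82 CPM. Its log2 fold change was 1.42 (standard error 0.37, 95% interval 0.63 to 2.21, unadjusted p = 0.00172 and adjusted p = 0.9256 from edgeR's test). The exact permutation test gave p = 0.0079 (unadjusted), the smallest it can give. Without replicates 2 and 11 the other 3 libraries averaged 1.85 times the WT mean and the log2 fold change was 0.88. The counts were small, 15 to 56 in a lesional library and 8 to 16 in a WT library.

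*Ifih1* had 64.2, 16.6, 20.6, 101.8 and 23.1 CPM in lesional libraries. Replicate 5 lay within the WT values and the remaining 4 above all of them, but only replicates 2 and 11 were far above, at 4.07 and 6.46 times the WT mean against 1.27 times for the mean of the other 3. The log2 fold change of *Ifih1* was 1.52 (standard error 0.48, exact permutation p = 0.0238), and 0.34 without replicates 2 and 11. *Eif2ak2* showed the same division, with 47.7, 12.97, 14.6, 61.8 and 17.2 CPM, a log2 fold change of 1.46 (standard error 0.44, exact permutation p = 0.0159), and 0.40 without these libraries. *Ddx58* had 50.4, 17.6, 17.0, 61.3 and 25.0 CPM, and a log2 fold change of 1.08 (standard error 0.36, exact permutation p = 0.0476) that was 0.29 without them. In the 3 lesional libraries with low *Krt6a* and *S100a8* these genes, a pair of RNA receptors and the RNA-activated kinase, were on average at 1.23 to 1.33 times their WT means.

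*Adar* had 34.9, 16.6, 10.9, 49.6 and 22.1 CPM in lesional skin, with replicate 8 below all WT libraries and 3 others above all of them. Its log2 fold change of 0.94 (standard error 0.34, unadjusted p = 0.0164 from edgeR's test) had an exact permutation p of 0.111, and it was 0.23 without replicates 2 and 11. For *Tlr3*, as for *Mavs*, replicate 2 was not among the high libraries. It had 7.8, 8.82, 9.3, 19.8 and 7.36 CPM, with 3 libraries above all WT libraries and the 2 others inside the WT range, whose top is 8.6 CPM. The log2 fold change of *Tlr3* was 0.99 (standard error 0.35, unadjusted p = 0.0134, exact permutation p = 0.0238), and it was 0.65 without replicate 11 and 0.67 without replicates 2 and 11.

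*Dhx58*, again under the filter, had 26, 3, 2, 59 and 13 counts in lesional libraries against 2 to 6 in WT. In CPM these are 11.9, 1.56, 0.81, 29.9 and 6.38, so that 3 libraries lay above all WT libraries and 1 below. The ratio of the depth-scaled sums was 6.86 (exact 95% interval 4.08 to 12.2, for counting error only). The mean log2 CPM was 1.55 higher, with an exact permutation p of 0.111, and it was 0.47 higher without replicates 2 and 11 (exact permutation p = 0.446). Leaving out any single lesional library gave exact permutation p-values between 0.0159 (without replicate 8) and 0.19 (without replicate 11).

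*Mavs* had 17.9, 25.4, 18.2, 20.8 and 30.4 CPM in lesional libraries, all inside the WT range of 14.6 to 31.5 CPM. Its log2 fold change was 0.05 (standard error 0.25, 95% interval -0.48 to 0.57). It was 0.17 without replicates 2 and 11, and these libraries were at 0.824 and 0.957 times the WT mean. The adaptor shared by RIG-I and MDA5 was therefore at or a little below its WT level in the same libraries in which both receptors had their highest levels. Taken relative to *Mavs* within each library, with *Mavs* picked as the reference when its levels were known and so with no test, log2 CPM in lesional skin exceeded WT by 1.73 for *Ddx60* and 1.11 for *Tmem173*, and by 0.65 to 1.46 for the other 6 members. Without replicates 2 and 11 these values were 0.71 for *Ddx60* and 0.60 for *Tmem173*, and -0.0066 to 0.43 for the others. In non-lesional skin the value was 0.91 for *Ddx60* and ran from -0.11 to 0.40 for the other 7.

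**Figure D3:**
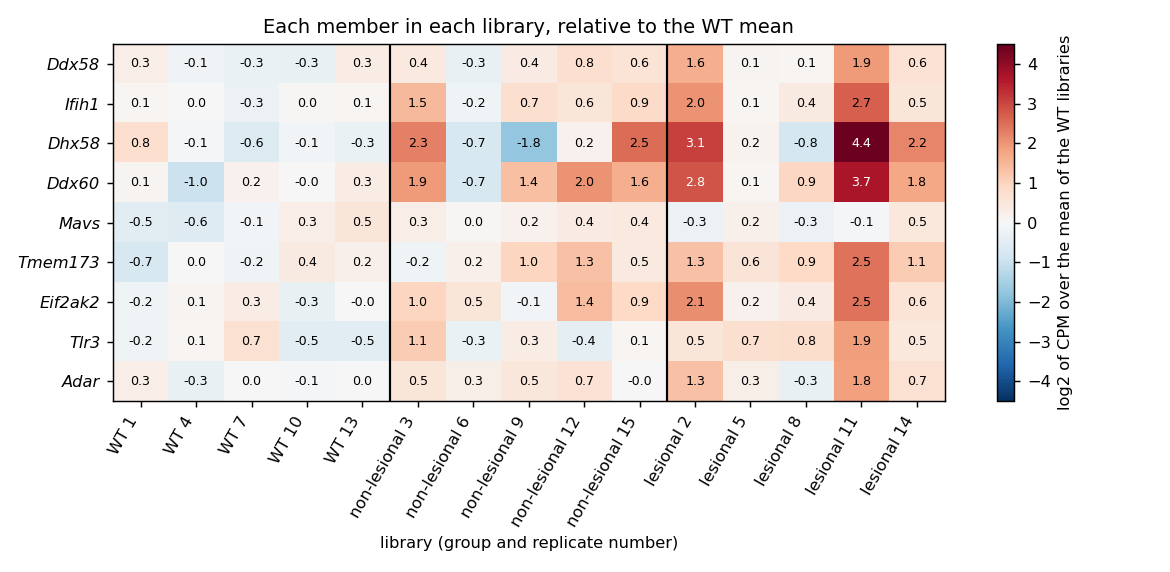
Log2 of the CPM of each member over its mean in WT libraries, for every library, with groups separated by lines. Lesional replicates 2 and 11 are above 0 for all members but *Mavs*, while non-lesional replicates 3, 9, 12 and 15 are above 0 for most members and non-lesional replicate 6 is within 1 of 0 for all.

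Lesional and non-lesional skin were compared directly to ask whether the sensors differ between the 2 kinds of OTULIN E-KO skin. Means were higher in lesional skin for 8 of the 9 members, all of which passed the filter here, and lower for *Mavs*, but the lesional spread covered these differences. At an unadjusted p under 0.05 there were 0 of 9 members (2.89% of all genes were higher at this p), and 0 members had lesional values all above the non-lesional ones (0.295% of all genes). By edgeR's test 0 of 12864 genes had an adjusted p under 0.05 (0% called), with 543 at an unadjusted p under 0.05, and DESeq2 and voomWithQualityWeights also called 0. The log2 fold changes were 1.51 for *Dhx58* (standard error 0.93), 0.89 for *Ddx60* (0.66), 0.77 for *Tmem173* (0.38), 0.74 for *Ifih1* (0.51), 0.70 for *Tlr3* (0.36), 0.67 for *Ddx58* (0.36), 0.64 for *Eif2ak2* (0.46), 0.53 for *Adar* (0.34) and -0.22 for *Mavs* (0.19). Without replicates 2 and 11 the sign turned for 6 of these, to -0.42 for *Ifih1*, -0.42 for *Ddx60*, -0.41 for *Eif2ak2*, -0.28 for *Dhx58*, -0.17 for *Adar* and -0.11 for *Ddx58*. The values of *Tmem173*, *Tlr3* and *Mavs* were then 0.23, 0.39 and -0.096. The 95% interval for *Ddx60* over all libraries, -0.57 to 2.36, allows both no difference and a large one.

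Libraries differed in how many members were high in them. The summed level of the 9 members was 84.8 to 114.7 CPM in WT libraries. It was 187.3, 97.9, 138.3, 179.9 and 162.1 CPM in non-lesional replicates 3, 6, 9, 12 and 15, so that only replicate 6 fell inside the WT range. In lesional replicates 2, 5, 8, 11 and 14 it was 303.1, 115.7, 116.0, 474.6 and 169.3 CPM, all above WT although replicates 5 and 8 were so by about 1 CPM. Replicate 11 was the highest of the 15 libraries for 8 members, and for *Mavs* the highest was WT replicate 13. In non-lesional skin 7 of 9 members were above all WT libraries in replicate 3, 5 in replicate 9, 6 in each of replicates 12 and 15, and 1 in replicate 6. Over the 13461 genes that passed the filter on all libraries, 14.3% to 15% were above all WT libraries in a single non-lesional library, so that the 1 member in replicate 6 is near this background. In lesional replicates 2, 5, 8, 11 and 14 there were 7, 2, 5, 8 and 7 members, beside 21.1%, 15.8%, 12.9%, 29.4% and 23.4% of genes. The 2 lesional libraries with the highest members were those with the highest stressed-epidermis and neutrophil sums, and the part of these cells in the result was not tested. Among non-lesional libraries, stressed-epidermis markers summed to 758.1 to 1668 CPM, inside the WT range, but in replicate 3 *Krt6b* reached 222.9 CPM and *Krt16* 99.1 CPM, above their WT maxima of 17.3 and 92.3 CPM. In replicates 9 and 12, where 5 and 6 members were above all WT libraries, the neutrophil sums of 5.41 and 3.65 CPM also lay inside the WT range. In replicate 3 the neutrophil sum was 220.6 CPM and in replicate 15 it was 19.9 CPM.

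**Figure D4:**
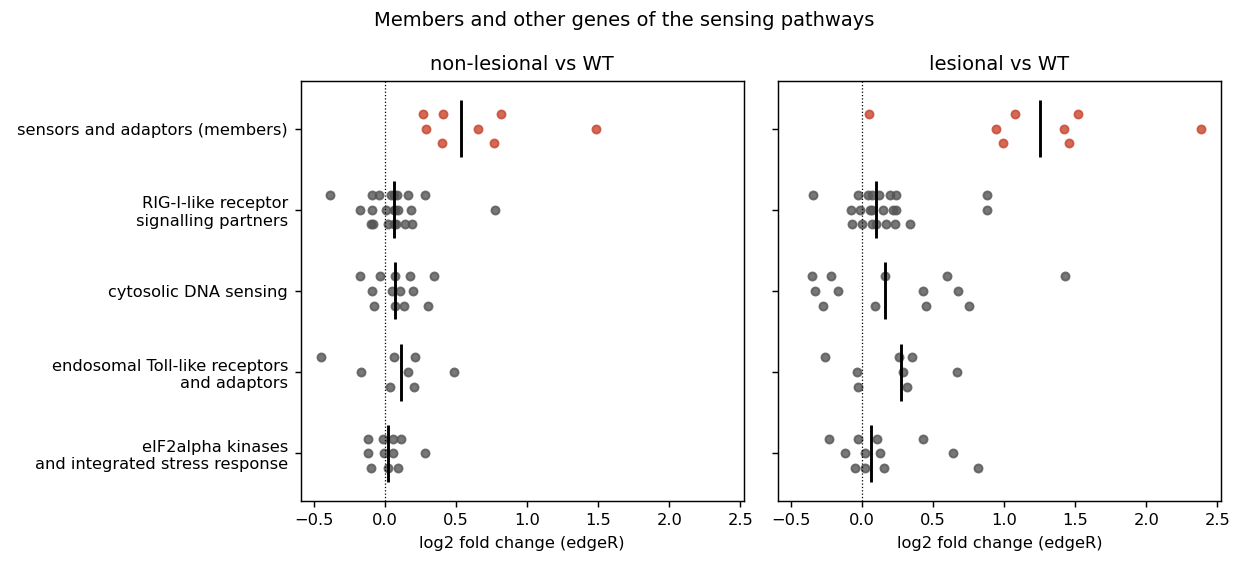
Log2 fold change from edgeR of each tested member and of each tested gene of 4 other lists of the sensing pathways, in non-lesional against WT and lesional against WT skin, with the list median as a bar. The member medians of 0.53 and 1.25 lie to the right of the other lists' medians, which are at most 0.12 and 0.27.

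The other genes of these pathways are given by list, and no test compared the lists with the members. Of 23 partners of the RIG-I-like receptors (ubiquitin ligases, TRAF proteins, kinases and IFN regulatory factors), all passed the filter and 1 had an unadjusted p under 0.05 in non-lesional skin. This was *Traf2*, an adaptor of TNF and MAVS signalling, at 7.88 ± 2.1 CPM against 4.61 ± 2.46 in WT (log2 fold change 0.77, standard error 0.33). In lesional skin *Traf2* was at 8.43 ± 3.52 CPM (log2 fold change 0.88, standard error 0.39) and *Trim25*, the ubiquitin ligase that activates RIG-I, at 51.7 ± 32.8 against 28.1 ± 5.9 CPM (log2 fold change 0.88, standard error 0.39). These were 2 of the 23, and the list's median log2 fold change was 0.064 in non-lesional and 0.10 in lesional skin. The kinase *Tbk1* and the transcription factor *Irf3*, which act directly below MAVS and STING, had log2 fold changes of 0.07 and -0.031 in lesional and 0.14 and -0.17 in non-lesional skin, all within 2 standard errors. Without lesional replicates 2 and 11, *Traf2* was still higher by 0.90 (standard error 0.45) and *Trim25* by 0.05 (standard error 0.25), and 0 of the 23 genes had an unadjusted p under 0.05.

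On the DNA side, 13 of 16 genes passed the filter. In non-lesional skin 0 of them had an unadjusted p under 0.05. In lesional skin 3 did and all were higher, namely *Trex1*, the exonuclease that clears cytosolic DNA, *Samhd1*, which depletes nucleotides, and *Cgas*, the DNA sensor that feeds STING. *Trex1* was at 48.1 ± 44.4 CPM against 17.8 ± 3.7 (log2 fold change 1.43, standard error 0.51). *Samhd1* had a log2 fold change of 0.67 (standard error 0.29) and *Cgas* of 0.60 (standard error 0.27). Without lesional replicates 2 and 11 the log2 fold changes of *Trex1*, *Samhd1* and *Cgas* were 0.26, 0.06 and 0.15, with standard errors of 0.24, 0.17 and 0.24, and the 1 gene of the list at an unadjusted p under 0.05 was *Dnase2a*, which was lower. Lesional against non-lesional, *Samhd1* and the helicase *Ddx41* were the 2 genes of this list at an unadjusted p under 0.05, with log2 fold changes of 0.62 and 0.50, which were 0.02 and 0.47 without replicates 2 and 11. The DNA sensors *Aim2* and *Zbp1* did not pass the filter, with 0 to 14 and 0 to 56 counts in a library. The median log2 fold change of the list was 0.073 in non-lesional and 0.16 in lesional skin.

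Of the endosomal Toll-like receptors and their adaptors, 8 of 11 passed the filter. *Unc93b1*, which carries these receptors to endosomes, was the 1 gene with an unadjusted p under 0.05, lower in non-lesional skin at 24.1 ± 5.4 against 32.9 ± 3.0 CPM (log2 fold change -0.45, standard error 0.17). In lesional skin 0 of the 8 had such a p. Downstream of PKR, the list of eIF2α kinases and the integrated stress response had 0 of 11 tested genes at an unadjusted p under 0.05 in non-lesional skin and 2 of 12 in lesional skin. Both were higher, *Asns*, asparagine synthetase, at 17.8 ± 7.1 against 10.04 ± 2.25 CPM (log2 fold change 0.82, standard error 0.27), and *Atf4*, the transcription factor of this response, at 303.8 ± 83.0 against 225.4 ± 23.8 CPM (log2 fold change 0.43, standard error 0.17). *Atf4* was also the 1 gene of its list at such a p between lesional and non-lesional skin, with a log2 fold change of 0.38, which was 0.18 without replicates 2 and 11. Without lesional replicates 2 and 11 the lesional values against WT were 0.51 for *Asns* (standard error 0.26) and 0.23 for *Atf4* (standard error 0.14). After adjustment over all genes tested, edgeR called 0 genes of these 4 lists in each comparison.

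The interferons themselves, the products that the MAVS, STING and TLR3 pathways induce, were hardly seen. *Ifnb1*, *Ifna2*, *Ifna4*, *Ifna5*, *Ifne*, *Ifnl2* and *Ifnl3* had 0 counts in all 15 libraries, which allows a level of up to 1.14 to 1.56 CPM in a library, set at 3 counts. *Ifnk*, the interferon of keratinocytes, had 5 counts over the WT, 8 over the non-lesional and 10 over the lesional libraries, 9 of the last in 1 library. *Ifng* had 1 count in 1 lesional library. None passed the filter, so no test was made, and a difference in these genes was not detectable at this depth.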

How the data were processed

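The authors made QuantSeq FWD 3′ libraries from skin RNA, trimmed reads with cutadapt 2.10, aligned them to GRCm38 with ERCC spike-ins by subread-align, and counted matches over exons with featureCounts 2.0.1. The deposited counts are whole numbers per gene and not normalized. One match could add to the count of more than 1 overlapping gene, no removal of PCR copies is described, and the strand setting and annotation release are not given in the sources used here. The 92 spike-in rows sum to 0 and were left out. The Wald test of DESeq2 was the authors' own method. Their table of CPM was not used.

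Groups were taken from the sample labels, 5 libraries each. Every comparison was fitted on its 2 groups with edgeR 4.0.16 in R 4.3.3 (TMM, filterByExpr with its minimum count of 10, robust quasi-likelihood F-test, Benjamini-Hochberg adjustment over all genes tested, threshold 0.05). Standard errors were taken as the size of the log2 fold change over the square root of F, and 95% intervals use the t distribution of the fit. Permutation tests were exact and two-sided over 252 regroupings of mean log2 CPM (prior count 2). No library was dropped or imputed in the main fits. The members and pathway lists were chosen with earlier results of these data known. The genes named from the pathway lists are those with an unadjusted p under 0.05 against WT, at most 3 in each list, and the interferons by their counts. *Tbk1*, *Irf3*, *Aim2*, *Zbp1*, *Ddx41*, *Dnase2a* and the marker genes of other cell types were named after their values were seen. Alternatives were DESeq2 1.42.0, voomWithQualityWeights of limma 3.58.1, other size factors and filters, all 15 libraries in 1 fit, no robust estimation, a Y-linked covariate and leaving out each library. Leaving out lesional replicates 2 and 11 together, and plain library totals for *Dhx58*, were added after seeing the data. Gene positions are from GENCODE M21 on GRCm38.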

Additional observations from a re-analysis of the deposited data

Results flagged for a closer look

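Within groups of 5, Dixon's test picked out 4 values among the 27 combinations of member and group, where chance gives about 1 in 20. *Tmem173* in lesional replicate 11 was at 28.36 CPM, with the next lesional library at 12.84 CPM. *Tlr3* in the same library was at 19.75 CPM, with the next at 9.3 CPM. Both were also the highest of all 15 libraries for their gene. *Ifih1* in WT replicate 7 was low at 13.13 CPM, beside 15.89 to 16.89 CPM in the other 4 WT libraries. *Dhx58* in WT replicate 1 was at 2.356 CPM, which is 6 counts against 2 or 3 in the other WT libraries.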

How the results depend on the processing

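Of 508 values of single members under the alternatives, 11 turned their sign and 4 passed a threshold that the reported value did not. The other 493 kept their direction, but no member passed the adjusted threshold as reported, so that keeping its side says little about size, and *Ifih1* in lesional against WT skin ranged from 0.34 to 1.73. The cause was not tested for any of them. Counts were low for *Dhx58*, at 2 to 6 in a WT library, and depth limits what its values show.

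In non-lesional against WT skin, genes with an adjusted p under 0.05 numbered 1 with DESeq2, 18 with no filter, and 0 to 5 on leaving out each replicate (5 without non-lesional replicate 6). Members with such a p numbered 1 with no filter, and 0 to 1 on leaving out replicates, in each case *Ddx60*. With all 15 libraries in 1 fit, 1 of 9 members tested was higher at an unadjusted p under 0.05 (1.08% of all genes). DESeq2 gave 3 of 9 (0.91%). Leaving out replicates gave from 3 of 8, as without WT replicate 4 (2.08%), to 6 of 8 without non-lesional replicate 6 (1.83%). Members without overlap numbered 0 to 3 on leaving out replicates, 3 without non-lesional replicate 6 and 1 without replicate 9. Leaving out a library can only raise such a count. The share of all genes, 0.392% with all libraries, is not given for these settings, so these counts are description. In lesional against WT skin DESeq2 called 14 genes and 1 member. Members higher at an unadjusted p under 0.05 numbered 4 of 5 tested with at least 10 counts in every library (3.49% of all genes), and 2 of 8 without lesional replicates 2 and 11 (1.42%). They numbered 5 of 8 with voomWithQualityWeights (1.95%) and 5 of 8 without lesional replicate 11 alone (1.49%). Members without overlap numbered 1 to 4 on leaving out replicates, 4 without lesional replicate 5 and 3 without WT replicate 7. The share of all genes was 0.441% with all libraries and is again not given for these settings. Between lesional and non-lesional skin, members higher at an unadjusted p under 0.05 numbered 1 of 9 with voomWithQualityWeights (1.56% of all genes), 2 with no filter (2.63%), 1 with all libraries in 1 fit (3.72%) and 1 with the Y-linked covariate (2.43%). Leaving out replicates gave 0 to 3, with 3 without lesional replicate 8 (4.18%) and 2 without replicate 5 (4.9%). Those without overlap numbered 0 to 1 (1 without non-lesional replicate 3). The share of all genes was 0.295% with all libraries and is not given for these settings.

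Signs turned for *Tlr3* in non-lesional skin (-0.03285 without replicate 3, up to 0.5144 on leaving out others), for *Mavs* in lesional against WT skin (-0.08585 to 0.2199 on leaving out replicates, below 0 without WT replicates 1 and 4 and lesional replicate 14) and for *Adar* between lesional and non-lesional skin (-0.008413 with voomWithQualityWeights). Without lesional replicates 2 and 11 the lesional against non-lesional values were -0.1141 for *Ddx58*, -0.4208 for *Ifih1*, -0.2827 for *Dhx58*, -0.4151 for *Ddx60*, -0.4058 for *Eif2ak2* and -0.1718 for *Adar*. No paired analysis was possible because the labels give the groups no shared replicate number and no source used here states a pairing. The label numbers run in turn through WT, lesional and non-lesional libraries, and whether neighbours share an animal or a litter is not known.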
